A study of Homo sapiens with 6 samples.

Results

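The 10 NRF2 antioxidant genes examined here were a fixed list of symbols, NFE2L2, KEAP1, GCLC, GCLM, TXN, TXNRD1, SRXN1, NQO1, HMOX1 and OSGIN1, found by matching symbols to the 59565 loci of a gene count table. All 10 matched 1 locus each, and all 10 passed the filter on low counts. The table covers 6 RNA-seq libraries of C4-2, a human prostate cancer cell line that descends from LNCaP. Of these, 3 are from an enzalutamide-resistant line of C4-2 (labelled Enz-R) and 3 from the parental line. Enzalutamide blocks the androgen receptor. The labels state neither whether the resistant cells were in the drug when collected, nor how the resistant line was made, nor whether the libraries come from separate cultures. The p-values therefore rest on library-to-library spread alone, and that spread may be technical.

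NRF2, the protein of NFE2L2, is a transcription factor that cells use against oxidants and reactive electrophiles. In unstressed cells the adaptor KEAP1 hands NRF2 to a CUL3 ubiquitin ligase and it is destroyed. When KEAP1 is modified, NRF2 enters the nucleus, pairs with a small MAF protein and binds antioxidant response elements (AREs) near genes for glutathione synthesis, thioredoxin recycling, quinone reduction and heme breakdown. NRF2 is regulated mostly at the level of its protein, which gene counts do not measure.

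Totals ran from 15673404 to 23351394 counts in the Enz-R libraries and from 19400321 to 28247038 in the parental libraries. Levels are given as CPM, counts relative to the total of the library, with totals scaled by edgeR's trimmed mean of M-values (TMM). A gene was called at an adjusted p under 0.05 from the quasi-likelihood test of edgeR, adjusted over the 19029 genes tested by the Benjamini-Hochberg method. Fold changes are log2 of Enz-R over parental with their standard error (SE). All 7 prostate luminal markers were detected, with summed levels of 4385 to 4613 CPM in Enz-R and 7442 to 7944 CPM in parental libraries. KLK3 made up most of the sum, with means of 2533 CPM in Enz-R and 4768 CPM in parental libraries. The markers did not change alike: KRT8 and KRT18 were called higher in Enz-R and the other 5 lower. Markers of other cell types summed to 49.5 to 58.6 CPM in Enz-R and 60.3 to 63.4 CPM in parental libraries for 6 fibroblast genes, mostly COL1A1. The sum of 5 endothelial genes was 4.71 to 6.02 CPM in Enz-R and 9.65 to 11.96 CPM in parental libraries. The sum of 6 leukocyte genes was 2.46 to 3.15 CPM in Enz-R and 3.06 to 3.66 CPM in parental libraries. No marker of these lists was at 0 in either group. Mitochondrial genes held 14.5% to 15.5% of counts in Enz-R and 8.78% to 11.3% in parental libraries. With mitochondrially encoded genes left out before scaling, 3 of the 10 genes were called higher and 6 lower, the same numbers as with them kept. Any other part of these differences in the results was not tested.

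The members did not move as a block. In Enz-R, 3 were called higher (HMOX1, TXN and GCLM) and 6 lower (SRXN1, KEAP1, OSGIN1, NFE2L2, TXNRD1 and NQO1), and GCLC was not called. Over all tested genes 64.8% were called, 32.4% higher and 32.3% lower. The median log2 fold change of the 10 was -0.43, against 0.01 over all tested genes. Changes of at least 2-fold were found for HMOX1 and SRXN1, that is 2 of 10, where 19.7% of all tested genes were called with at least 2-fold changes. The 3 libraries of one line lay entirely above the 3 of the other for all 10 members, a property that 68.9% of all tested genes had. Enz-R lay above for 4 members and below for 6, against 34.2% above and 34.7% below over all tested genes. These shares of all genes are high, so a call or a gap between the lines does not set a member apart.

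**Figure D1:**
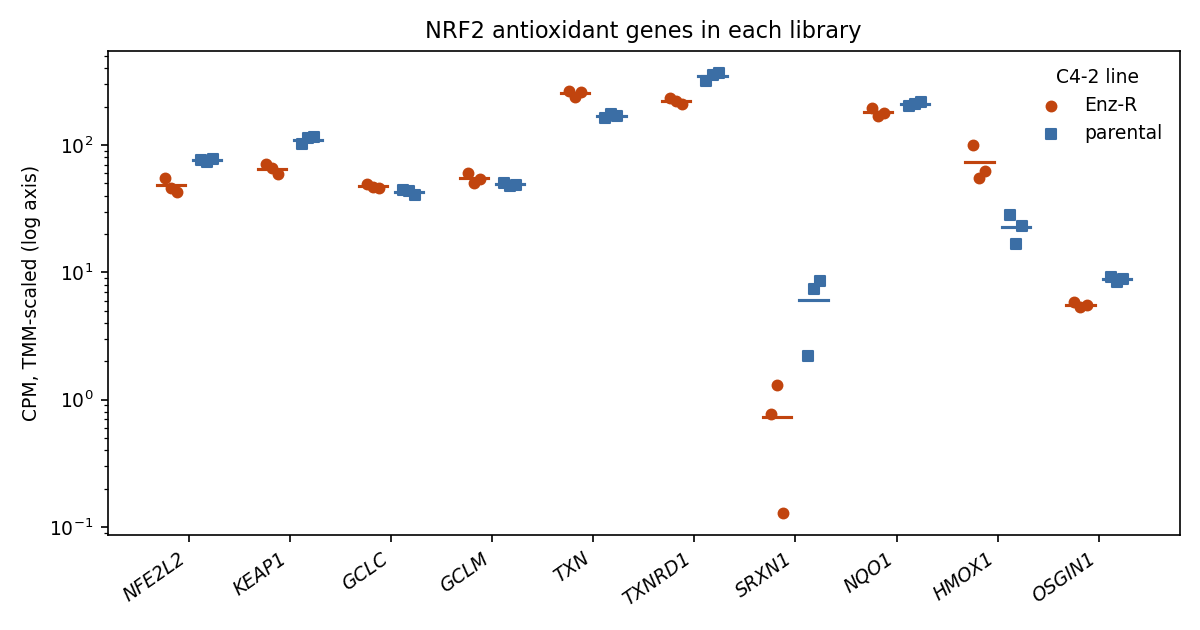
CPM (TMM-scaled, log axis) of each of the 10 genes in each library, with Enz-R as circles and parental as squares; short lines are group means (n = 3). HMOX1 and TXN lie higher in Enz-R, SRXN1 lies lowest and spreads widely, and GCLC and GCLM differ little between the lines.

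ARE matches near the members' starts are shown here because AREs are the DNA element through which NRF2 acts on its targets. The RefSeq promoter table used here (GRCh38.p14, 250 bases before to 50 after each start) holds 12 windows for 9 of the members, all but HMOX1. The ARE core TGACNNNGC was searched on both strands. It was found in 4 of the 12 member windows (33.33%) and in 13.35% of all 35116 windows, and the difference was not tested. The member windows with a match belong to 3 members, GCLM, TXNRD1 and KEAP1. The 2 KEAP1 matches lay in the same window, and its other window held no match. The windows of TXNRD1 held 3 matches. The matches nearest to the start in GCLM and KEAP1, and that of the second TXNRD1 window, are printed below 5′ to 3′ on the strand of the gene, with the match in capitals. All 3 lie on the reverse strand of their window, so the capitals read as the reverse complement of the core.
GCLM, chr1:93909440-93909480, minus strand: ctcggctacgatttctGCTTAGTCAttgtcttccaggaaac
KEAP1, chr19:10502778-10502818, minus strand: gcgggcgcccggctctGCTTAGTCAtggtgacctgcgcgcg
TXNRD1, chr12:104286914-104286954, plus strand: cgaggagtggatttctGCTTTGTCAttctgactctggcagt
Read on the core's strand, GCLM and KEAP1 carry the same letters, TGACTAAGC. As printed on the gene's strand, their capitals begin 34 and 31 bases before their starts. The TXNRD1 match reads TGACAAAGC on the core's strand, and its capitals as printed begin 102 bases before that start. The other matches read TGACACGGC in KEAP1, and TGACTTCGC and TGACGGAGC in the other TXNRD1 window. The AP-1 motif TGACTCA, which can overlap an ARE, was found in 1 member window, that of OSGIN1, and in 4.95% of all windows, and overlapped none of these matches. Of the 3 members with a match, GCLM was higher and KEAP1 and TXNRD1 were lower in Enz-R. A match is a description of letters and not evidence of binding, and the windows without one say nothing about elements farther away.

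The regulator pair fell together in Enz-R. NFE2L2 (ENSG00000116044, chromosome 2, 177227595 to 177392697, GRCh38) had 55.0, 46.2 and 43.0 CPM in Enz-R libraries, against 75.8, 74.0 and 77.1 CPM in parental libraries. Every Enz-R library lay below every parental one, and the Enz-R libraries were the more spread. The log2 fold change was -0.65 ± 0.08 (adjusted p = 4.12e-06). KEAP1 (ENSG00000079999, chromosome 19, 10486120 to 10503741), the inhibitor, had 70.6, 65.6 and 59.0 CPM in Enz-R libraries, against 101, 113 and 115 CPM in parental libraries. Its groups did not overlap either, and it changed by -0.75 ± 0.07 (adjusted p = 4.34e-07). The annotated exons of NFE2L2 share bases with 3 other genes, 2 of them on the opposite strand, and 4729 of its 5979 exonic bases are its own. The library kit is not stated to keep strand.

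Because both genes fell, their ratio within a library changed little. The log2 ratio of NFE2L2 to KEAP1 counts was -0.36, -0.50 and -0.45 in Enz-R libraries, against -0.42, -0.61 and -0.58 in parental libraries. The ranges overlapped. The mean difference, Enz-R minus parental, was 0.09 (two-sided exact permutation test, p = 0.3; the smallest p that 3 against 3 libraries allow is 0.1). This ratio does not depend on how libraries are scaled, and leaving out any 1 library gave differences of 0.06 to 0.15.

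Glutathione synthesis begins with glutamate-cysteine ligase, which joins the catalytic subunit GCLC to the modifier subunit GCLM. Both subunits were slightly higher in Enz-R, and only GCLM passed the threshold. GCLM (ENSG00000023909, chromosome 1, 93885205 to 93909456) had 59.8, 50.7 and 54.4 CPM in Enz-R libraries, against 50.3, 47.8 and 48.9 CPM in parental libraries. The lowest Enz-R library stood just above the highest parental one. Its log2 fold change was 0.17 ± 0.07 (adjusted p = 0.0486), and the call was lost in 10 of 15 alternative analyses (adjusted p 2.69e-04 to 0.378). GCLC (ENSG00000001084, chromosome 6, 53497341 to 53616970) had 49.4, 47.1 and 45.6 CPM in Enz-R libraries, against 44.7, 43.8 and 40.2 CPM in parental libraries. Its groups were separated by less than 1 CPM and its value was 0.14 ± 0.07 (adjusted p = 0.0757), with calls in 2 of 15 alternatives, one of them the correction for GC content and transcript length (0.25, adjusted p = 0.00383).

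The ratio of the subunits differed between the lines by less than the spread of the libraries. The log2 ratio of GCLM to GCLC counts was 0.28, 0.10 and 0.25 in Enz-R libraries, against 0.17, 0.13 and 0.28 in parental libraries. The difference of the means was 0.02, smaller than the SDs of 0.09 in Enz-R and 0.08 in parental libraries (two-sided exact permutation test, p = 1.0). Leaving out any 1 library moved the difference between -0.01 and 0.07, so its sign is not settled.

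The thioredoxin pair moved apart. Thioredoxin, encoded by TXN, reduces disulfides in other proteins and is itself reduced by thioredoxin reductase 1, the selenoprotein encoded by TXNRD1, at the cost of NADPH. TXN (ENSG00000136810, chromosome 9, 110243811 to 110256640) had 266, 237 and 259 CPM in Enz-R libraries, against 163, 174 and 170 CPM in parental libraries. It rose by 0.59 ± 0.06 (adjusted p = 9.89e-07). TXNRD1 (ENSG00000198431, chromosome 12, 104215779 to 104350305) had 236, 224 and 209 CPM in Enz-R libraries, against 316, 358 and 370 CPM in parental libraries. It fell, with a log2 fold change of -0.64 ± 0.07 (adjusted p = 1.61e-06). Neither gene's groups overlapped.

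Within a library, TXN counts were 1.13, 1.06 and 1.24 times those of TXNRD1 in Enz-R, against 0.517, 0.486 and 0.460 times in parental libraries. TXN thus had more counts than its reductase in every Enz-R library and fewer in every parental one. These counts are not divided by exon length, and per kb of exon TXN lay above TXNRD1 in both lines. The difference in log2 ratio was 1.23, a 2.34-fold shift (two-sided exact permutation test, p = 0.1, the smallest that 3 against 3 libraries allow), and it was 1.17 to 1.28 without any 1 library. Exon length moved with the change across the whole table. The median log2 fold change was 0.40 over 561 tested protein-coding genes with under 1.5 kb of exon, and -0.19 over 5308 with 6 kb or more. TXN, with 1.142 kb, is the shortest member, and TXNRD1, with 6.708 kb, is the second longest after GCLC. After correction for GC content and transcript length, TXN still rose (0.40, adjusted p = 4.67e-05) and TXNRD1 still fell (-0.51, adjusted p = 1.68e-05). TXN has processed pseudogenes that can share its reads.

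**Figure D2:**
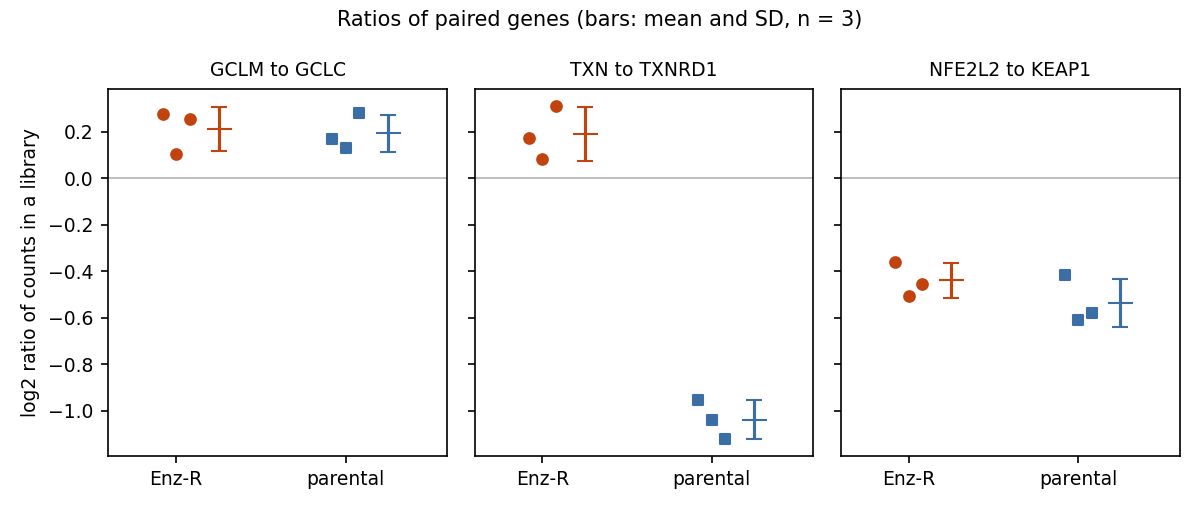
Log2 ratio of the counts of 2 genes in each library for GCLM to GCLC, TXN to TXNRD1 and NFE2L2 to KEAP1, with points for libraries and bars for mean and SD (n = 3). The TXN to TXNRD1 ratio lies above 0 in all Enz-R libraries and below -0.9 in all parental ones, while the other ratios overlap between the lines.

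SRXN1 encodes sulfiredoxin, which repairs peroxiredoxins that have been over-oxidised. It had the largest fold change of the members and the weakest data. SRXN1 (ENSG00000271303, chromosome 20, 646615 to 653370) had 17, 22 and 2 raw counts in Enz-R libraries, against 63, 148 and 176 in parental libraries. These are 0.777, 1.29 and 0.129 CPM in Enz-R and 2.19, 7.41 and 8.59 CPM in the parental line. The groups did not overlap, yet parental replicate 1 stood nearer to the highest Enz-R library than to the other parental libraries. The log2 fold change was -2.97 ± 0.51 (adjusted p = 1.22e-04), and -2.54 to -3.54 when 1 library was left out. The coefficient of variation was 79.6% in Enz-R, at a mean below 5 CPM, and 56.1% in parental libraries. In the parental line the 90th percentile over genes with at least 5 CPM was 11.3%. Of 2698 exonic bases of SRXN1, 2292 are shared with AL121758.1 (ENSG00000270299), an overlapping gene on the same strand that had 3, 1 and 1 counts in Enz-R and 13, 9 and 7 in parental libraries. How reads from the shared bases were assigned is not given in the sources used here, so the level of SRXN1 is uncertain.

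NQO1 encodes a quinone reductase that is widely used as a readout of NRF2 activity. NQO1 (ENSG00000181019, chromosome 16, 69706996 to 69726951) had 195, 168 and 179 CPM in Enz-R libraries, against 202, 211 and 216 CPM in parental libraries. It was lower by a small margin, with a log2 fold change of -0.21 ± 0.07 (adjusted p = 0.0102). The call was lost without Enz-R replicate 2 (-0.16, adjusted p = 0.0688). An antisense gene shares 575 exonic bases with NQO1 and had 0 counts in every library.

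HMOX1 encodes heme oxygenase 1, the inducible enzyme that opens the heme ring to give biliverdin, carbon monoxide and iron. It had the largest rise of the members. HMOX1 (ENSG00000100292, chromosome 22, 35380361 to 35394214) had 101, 55.2 and 63.0 CPM in Enz-R libraries, against 28.1, 16.7 and 23.1 CPM in parental libraries. All Enz-R libraries lay above all parental ones, and Enz-R replicate 1 stood well above the other Enz-R libraries. The gene rose 3.21-fold (1.68 ± 0.19, adjusted p = 1.96e-06). Without Enz-R replicate 1 the log2 fold change was 1.37. Its coefficient of variation was 33.5% in Enz-R and 25.2% in parental libraries, above the 90th percentiles of 14.6% and 11.3% over genes with at least 5 CPM.

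OSGIN1, an NRF2-responsive gene whose product restrains cell growth, was the least expressed member apart from SRXN1. OSGIN1 (ENSG00000140961, chromosome 16, 83948282 to 83966332) had 5.85, 5.29 and 5.50 CPM in Enz-R libraries, against 9.26, 8.36 and 8.88 CPM in parental libraries. The libraries of each line were close together and the groups were well apart. Its log2 fold change was -0.67 ± 0.12 (adjusted p = 2.28e-04). A protein-coding gene on the same strand, AC009119.2, shares 481 of its exonic bases. That gene had 5, 5 and 1 counts in Enz-R and 17, 10 and 9 in parental libraries.

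**Figure D3:**
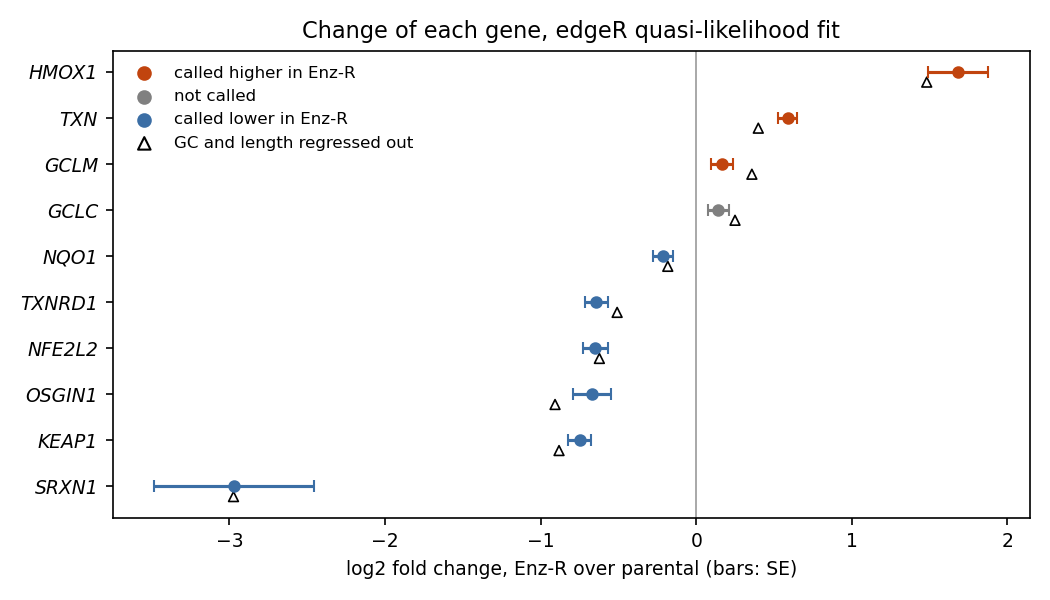
Log2 fold change of Enz-R over parental for the 10 genes, with SE bars, coloured by call; open triangles give the value after correction for GC content and transcript length. HMOX1 (1.68) and SRXN1 (-2.97) are the extremes, and every gene keeps its sign after that correction.

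To compare levels between members, CPM was divided by the summed exon length in kb. TXN was highest in both lines, at 223 ± 13.2 CPM per kb in Enz-R and 148 ± 4.76 in parental libraries (SD, n = 3 each). NQO1 followed, at 55.5 ± 4.15 CPM per kb in Enz-R and 64.4 ± 2.22 in parental libraries. TXNRD1 came next, at 33.2 ± 2.03 CPM per kb in Enz-R and 51.9 ± 4.22 in parental libraries. The main change of order was in HMOX1, which stood at 30.4 ± 10.2 CPM per kb in Enz-R, where its libraries overlapped those of TXNRD1, and at 9.42 ± 2.38 in parental libraries, where they overlapped those of GCLM. Below these in Enz-R came KEAP1, GCLM, NFE2L2, GCLC, OSGIN1 and SRXN1, none of which overlapped its neighbour. In parental libraries KEAP1 and then NFE2L2 came after TXNRD1 and ahead of HMOX1, and at the lower end OSGIN1 and SRXN1 overlapped. The SRXN1 level per kb is uncertain for the reason given above.

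The members are spread over 9 chromosomes, with NQO1 and OSGIN1 both on chromosome 16. Their changes were set beside those of 10 neighbouring tested protein-coding genes, taken equally from both sides in order of position. Over all tested genes, 32.4% were higher and 32.3% lower. The neighbours of TXN had a median log2 fold change of -0.74, with 8 lower and 1 higher, whereas TXN rose. The neighbours of KEAP1 had a median of 0.37, with 6 higher and 3 lower, whereas KEAP1 fell. For the other members the median of the neighbours lay between -0.39 (GCLC) and 0.06 (TXNRD1).

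Other genes of the redox system were read from 8 lists. Of 20 tested genes whose products act on NRF2 or KEAP1, or belong to related factors and NRF2's partners, 2 were higher and 9 lower, with a median of -0.12. After correction for GC content and transcript length, 7 were higher and 8 lower. SQSTM1, whose product binds KEAP1 and draws it into autophagy, was 189 ± 4.14 CPM in Enz-R and 147 ± 8.83 CPM in parental libraries (0.36 ± 0.06). RBX1, the RING subunit of the CUL3 ligase, also rose (0.31 ± 0.06). The largest falls were those of NFE2L1, a related factor that controls proteasome genes (-1.09 ± 0.06), and of the coactivator genes CREBBP (-0.71 ± 0.07) and EP300 (-0.70 ± 0.07). After the GC content and length correction the values of NFE2L1, CREBBP and EP300 were -0.98, -0.48 and -0.41. CUL3 itself was not called.

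Of 22 tested genes of glutathione synthesis and use, 8 were higher and 8 lower, with a median of 0.10. The glutathione peroxidase genes GPX8 (1.15 ± 0.12), GPX4 (1.04 ± 0.07) and GPX1 (0.63 ± 0.06) rose. After the GC content and length correction their values were 1.25, 0.67 and 0.23. GPX4, which reduces lipid peroxides, was 322 ± 22.3 CPM in Enz-R and 157 ± 5.01 CPM in parental libraries. CHAC1, which degrades glutathione (-1.34 ± 0.08), CTH, which makes cysteine (-1.17 ± 0.12), and ABCC1, which exports glutathione conjugates (-1.08 ± 0.06), fell. The cystine transporter gene SLC7A11, singled out after its values were seen, was 69.9 ± 6.93 CPM in Enz-R and 136 ± 7.82 CPM in parental libraries (-0.95 ± 0.07). The number called higher in this list was 5 without parental replicate 3 and also 5 when libraries were scaled by their totals.

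Of 13 tested glutathione S-transferase genes, 9 were higher and 2 lower, with a median of 0.41. After the GC content and length correction, 8 were higher and 2 lower. GSTM2 rose most, at 24.2 ± 3.36 CPM in Enz-R and 5.86 ± 0.692 CPM in parental libraries (2.03 ± 0.13). It shares sequence with the other GSTM genes, so its counts are uncertain. GSTA4 (0.80 ± 0.10) and the microsomal MGST3 (0.72 ± 0.06) rose, and GSTO2 (-1.01 ± 0.16) and GSTCD (-0.91 ± 0.11) fell. GSTP1, whose promoter is methylated in most prostate cancers, was singled out after its values were seen. It had 25 counts over the Enz-R group and 22 over the parental group and was below the filter.

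Of 20 tested genes of thioredoxins, peroxiredoxins and methionine sulfoxide reductases, 12 were higher and 5 lower, with a median of 0.21. After the GC content and length correction, 9 were higher and 5 lower, and with at least 50 counts required in 3 libraries 12 were higher and 3 lower. TXNIP, whose product binds and inhibits thioredoxin, was 57.1 ± 3.48 CPM in Enz-R and 22.1 ± 10.1 CPM in parental libraries (1.39 ± 0.19), with a wide parental spread. Nucleoredoxin, NXN (1.10 ± 0.10), and TXNDC17 (0.68 ± 0.09) also rose. The sestrin genes SESN2 (-0.67 ± 0.08) and SESN1 (-0.36 ± 0.08) fell. TXNRD2, the mitochondrial thioredoxin reductase, fell as well (-0.40 ± 0.06).

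NADPH pays for both the glutathione and the thioredoxin cycle. Of 16 tested genes of NADPH supply, 5 were higher and 10 lower, with a median of -0.20. Over all tested genes, 32.4% were higher and 32.3% lower. The count of lower genes in this list was 7 after the GC content and length correction, and also 7 without Enz-R replicate 2. PGLS, a lactonase of the oxidative pentose phosphate route, rose (0.63 ± 0.08, and 0.33 after that correction). PGD, which makes NADPH in the same route, fell (-0.61 ± 0.06). TKT of the non-oxidative branch rose (0.40 ± 0.07, and 0.58 after that correction). The NAD kinase gene NADK (-0.47 ± 0.06) and the mitochondrial transhydrogenase gene NNT (-0.40 ± 0.09) fell. The NNT call was lost after the GC content and length correction (-0.15, adjusted p = 0.191).

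Of 16 tested heme and iron genes, 5 were higher and 8 lower, with a median of -0.18. The count of higher genes was 3 without Enz-R replicate 2, without parental replicate 1, without parental replicate 2 and when libraries were scaled by their totals. BLVRB, a biliverdin reductase (0.71 ± 0.07), the ferritin light chain gene FTL (0.53 ± 0.08) and the heme transporter gene SLC48A1 (0.46 ± 0.09) rose. After the GC content and length correction their values were 0.44, 0.25 and 0.38. FECH, which inserts iron to form heme, was 53.8 ± 5.01 CPM in Enz-R and 143 ± 7.21 CPM in parental libraries (-1.41 ± 0.07). The transferrin receptor gene TFRC (-0.90 ± 0.09) and ALAS1, the first enzyme of heme synthesis (-0.47 ± 0.08), also fell. FTL has processed pseudogenes that can share its reads.

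Of 4 tested superoxide dismutase and catalase genes, 2 were higher and 1 lower. SOD1 was 282 ± 25.4 CPM in Enz-R and 152 ± 6.22 CPM in parental libraries (0.89 ± 0.07), its copper chaperone gene CCS rose (0.40 ± 0.07), and CAT fell (-0.26 ± 0.06). The CCS call was lost after the GC content and length correction (0.05, adjusted p = 0.535). Of 19 tested genes of quinone, aldehyde and conjugate handling, 9 were higher and 5 lower, with a median of 0.29. When only genes with at least 50 counts in 3 libraries were tested, 5 of this list were called higher and 5 lower. The aldehyde dehydrogenase gene ALDH3A2 (1.02 ± 0.06), the epoxide hydrolase gene EPHX1 (0.75 ± 0.07) and NQO2, the relative of NQO1 (0.74 ± 0.06), rose. The prostaglandin reductase gene PTGR1 (-1.53 ± 0.07), the efflux pump gene ABCC4 (-1.39 ± 0.08) and UGDH, which makes UDP-glucuronic acid (-0.96 ± 0.08), fell. The share of all tested genes called was 32.4% higher and 32.3% lower, and no list was tested against it.

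**Figure D4:**
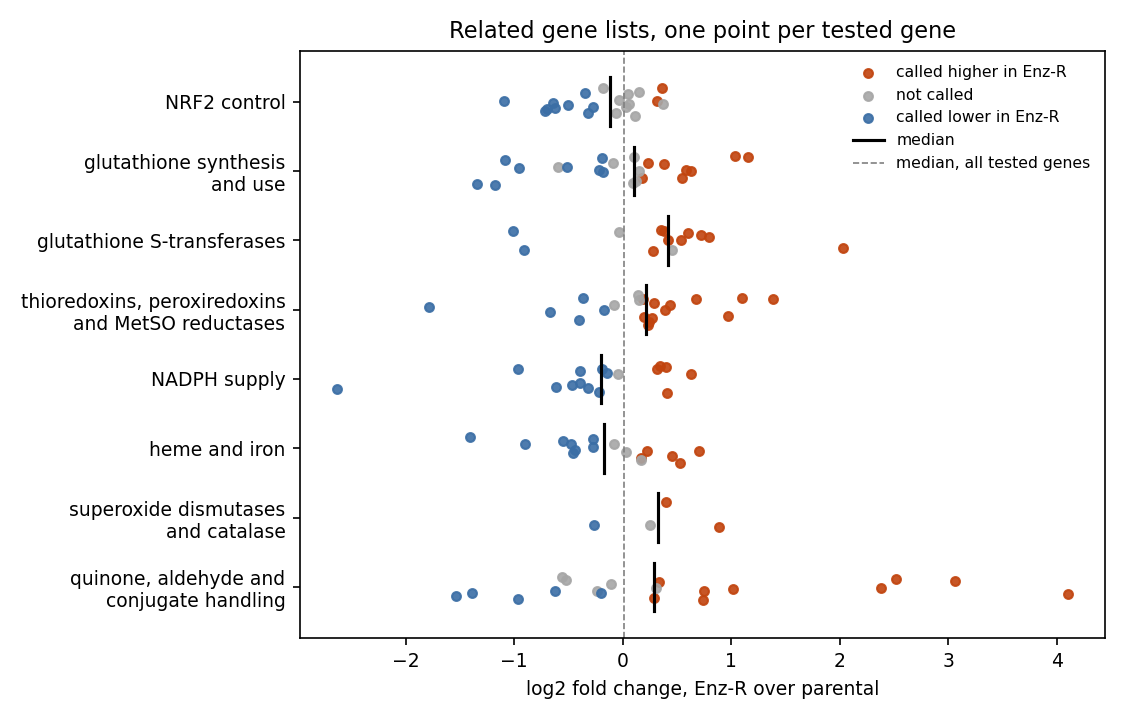
Log2 fold change of Enz-R over parental for each tested gene of 8 related lists, coloured by call, with black bars for list medians and a dashed line for the median of all tested genes (0.01). Medians run from -0.20 for NADPH supply to 0.41 for glutathione S-transferases, and every list holds genes called in both directions.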

How the data were processed

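The 6 libraries were made from C4-2 cells with the NEBNext Ultra RNA kit and sequenced as 150 bp paired ends, per the labels' protocols. Reads were aligned to GRCh38 with HISAT2, per the submitters' processing notes. What counted the reads, on which annotation and with what strand option is not given in the sources used here. The deposited table holds raw counts per gene and library, before any scaling. Identifiers were given positions and exon lengths from GENCODE 29 and current symbols from a separate list of gene names.

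The fit of Enz-R against parental used edgeR 4.0.16 under R 4.3.3 (filterByExpr, TMM, glmQLFit, glmQLFTest, no covariate), fitted on the whole table. Each SE is the absolute log2 fold change over the square root of F. Alternatives were DESeq2 1.42.0, limma-voom 3.58.1, other scaling and filters, and the replicate number as a block. Others left out mitochondrially encoded genes before scaling, or each library in turn. The regression of GC content and transcript length (splines with 5 degrees of freedom, known for 96.3% of tested genes) was added after seeing the data. Methods were tried on simulated data with 200 changed genes and the same spread set for every gene. Far more genes were called in the real data, so that trial does not cover such a case. Pairs of libraries of a group differed by more than counting error, with chi-square over its degrees of freedom at 3.91 to 8.98.

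The members and lists were chosen with earlier results of these data known. Named genes are all members and, from each list, the up to 3 largest called rises and 3 largest called falls, where the groups did not overlap and the higher mean was 5 CPM or more. A gene that met this rule is not reported here. GSTT1 had no matching locus and SOD2 had 2, so neither was tested. Python 3.11.15 with pandas 2.3.3, numpy 2.4.6, scipy 1.17.1 and matplotlib 3.10.9 was used for summaries and figures.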

Additional observations from a re-analysis of the deposited data

How the results depend on the processing

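Of the 10 members, 7 kept direction and call under all 15 alternatives: NFE2L2, KEAP1, HMOX1, TXN, TXNRD1, SRXN1 and OSGIN1. The share of all tested genes that did so was not computed, so this count does not set the members apart. NQO1 was called in 14, GCLM in 5 and GCLC in 2 of the 15, and no member changed sign. Members called higher numbered 2 to 4 and members called lower 5 to 6. Over all genes, 5097 to 6475 were called higher and 5049 to 7094 lower, against 6173 and 6150 in the fit reported. Same-numbered libraries of the lines did not deviate together over all tested genes (correlations of -0.01 to 0.05). With 3 libraries a line, this cannot settle whether the numbers mark pairs. The mitochondrial share fell from replicate 1 to replicate 3 in both lines (15.5% to 14.5% in Enz-R, 11.3% to 8.78% in parental libraries). With the replicate block, 6179 genes were higher and 6158 lower, and 3 members were higher and 6 lower. Of 44 list genes examined singly, only NNT and CCS lost their call, both after correction for GC content and transcript length. Of the counts of called list genes under the alternatives, 10 moved by over 1.5 times and 230 did not. Depth limits SRXN1, with 41 counts over the Enz-R group. The number of libraries, 3 a line, keeps an exact permutation test from going below p = 0.1.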
